A study of Rattus norvegicus with 11 samples.

Results

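The genes described here encode the machinery that starts transcription by RNA polymerase II: the subunits of TFIID (the TATA-box binding protein TBP and its associated factors, the TAFs), Mediator and the general transcription factors. They were chosen by symbol, as every row whose name begins with Taf, Med or Gtf2 followed by a number or, for Gtf2, any letter, together with Tbp. There were 72 such rows among the 42172 genes of each count table, and 68 of them were among the 17294 genes with enough reads to test. The set was selected on measured values, because Taf genes had been seen to be higher in neurons that express H1.4 CFT. Values of these genes in H1.4 CFT neurons, against either other group, are therefore a description with no test, and the only comparison that the choice did not use is WT H1.4 against GFP.

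Polyadenylated RNA was sequenced from hippocampal neurons of CD (Sprague Dawley) IGS rats, grown as primary cultures and lysed at day 7 in vitro. Of the 11 libraries, 4 came from neurons with an exogenous copy of the linker histone H1.4 in its wild-type form (WT H1.4, replicates 1 to 4), 4 from neurons with exogenous H1.4 CFT, a mutant with a frameshifted C-terminal tail (replicates 1 to 4), and 3 from control neurons with GFP (replicates 2 to 4). All groups expressed a protein from outside and no group was left untouched. The promoter and the vector of these constructs are not given in the sources used here, and neither is the share of cells that took them up. The submitters call the libraries biological replicates.

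TFIID recognises the core promoter and places TBP on it, after which TFIIA, TFIIB, TFIIE, TFIIF and TFIIH assemble with RNA polymerase II into the preinitiation complex. Mediator, a large complex with head, middle and tail modules and a detachable kinase module, carries the signal of factors bound at enhancers to that assembly. In neurons, as in other cells, nearly every protein-coding gene depends on these factors, and mutations in several of them, among them TAF1, MED12, MED13L and MED27, are known causes of intellectual disability syndromes.

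To show where these genes start, the 250 bases upstream of the annotated start are printed for 6 members, the one with the highest and the one with the lowest log2 difference of H1.4 CFT from WT H1.4 in each group: Taf3 and Taf9b for the TAFs, Med29 and Med12l for Mediator, and Gtf2h1 and Gtf2f2 for the general factors TFIIA to TFIIH. The sequences are from RefSeq on the GRCr8 build, which is the build of the sequence table and not that of the counts. They read 5′ to 3′ on the strand of the gene. Capitals mark matches, on either strand, to the TATA box TATAAA, the CCAAT box CCAAT, or CCGGAAG, a core that factors of the ETS family are known to bind.
Taf3, chr17:73364912-73365161, plus strand: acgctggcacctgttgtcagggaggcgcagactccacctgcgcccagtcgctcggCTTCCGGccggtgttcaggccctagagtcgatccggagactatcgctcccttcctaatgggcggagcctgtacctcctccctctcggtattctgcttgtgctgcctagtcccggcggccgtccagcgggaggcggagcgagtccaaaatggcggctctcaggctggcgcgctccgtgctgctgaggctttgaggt
Taf9b, chrX:75364097-75364346, minus strand: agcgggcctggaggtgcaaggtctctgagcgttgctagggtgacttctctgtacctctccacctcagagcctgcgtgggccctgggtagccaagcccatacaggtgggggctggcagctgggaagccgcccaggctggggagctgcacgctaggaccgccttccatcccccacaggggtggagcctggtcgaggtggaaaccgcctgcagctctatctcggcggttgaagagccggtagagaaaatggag
Med29, chr1:92810909-92811158, minus strand: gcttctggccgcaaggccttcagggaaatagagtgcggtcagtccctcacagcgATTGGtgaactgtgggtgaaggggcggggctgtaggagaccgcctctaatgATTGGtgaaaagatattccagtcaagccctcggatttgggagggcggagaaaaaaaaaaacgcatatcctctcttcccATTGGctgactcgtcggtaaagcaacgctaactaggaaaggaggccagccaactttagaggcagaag
Med12l, chr2:145403068-145403317, plus strand: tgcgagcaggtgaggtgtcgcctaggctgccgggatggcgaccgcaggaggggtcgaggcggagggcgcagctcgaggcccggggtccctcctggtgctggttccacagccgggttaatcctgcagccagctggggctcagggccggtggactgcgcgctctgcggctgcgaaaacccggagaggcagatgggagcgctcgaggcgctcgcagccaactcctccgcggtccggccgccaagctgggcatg
Gtf2h1, chr1:106457442-106457691, plus strand: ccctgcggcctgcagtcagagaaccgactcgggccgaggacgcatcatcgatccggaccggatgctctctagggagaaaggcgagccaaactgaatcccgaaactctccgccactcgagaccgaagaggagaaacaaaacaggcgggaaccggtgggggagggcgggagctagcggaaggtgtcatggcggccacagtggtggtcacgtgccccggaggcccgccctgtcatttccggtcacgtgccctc
Gtf2f2, chr15:57736478-57736727, minus strand: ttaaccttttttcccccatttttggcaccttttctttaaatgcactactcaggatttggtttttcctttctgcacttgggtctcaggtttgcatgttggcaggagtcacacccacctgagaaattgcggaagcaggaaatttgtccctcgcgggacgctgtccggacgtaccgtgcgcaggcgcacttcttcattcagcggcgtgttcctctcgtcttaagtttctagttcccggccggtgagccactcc
The Taf3 stretch held 1 match to CCGGAAG. The Med29 stretch held 3 matches to CCAAT, all on the opposite strand to the gene. The stretches of Taf9b, Med12l, Gtf2h1 and Gtf2f2 held no match to any of the 3 motifs. A match is a description of letters and was not tested as a site of binding.

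Over windows of 300 bases (250 before the start and 50 after it), 60 of the 72 members had a sequence in the table. CCGGAAG, on either strand, was in 16 of these 60 (26.7%), in 9.22% of all 27457 promoters in the table and in 15.3% of the 12585 promoters of tested genes. It was in 5 of the 12 TFIID core TAF promoters (41.7%). These are not the 12 core TAFs tested below, as they include Taf9, which was not tested, and lack Taf2, which had no sequence. TATAAA was in 4 of the 60 (6.67%), with 14.3% of all promoters and 7.41% of those of tested genes. CCAAT was in 27 of the 60 (45%), with 37.7% and 36.7%. The median number of CpG dinucleotides was 21.5 per member promoter, 19 per promoter of a tested gene and 7 over the whole table.

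Levels are given as CPM, the reads of a gene scaled to a common library size after TMM scaling, which adjusts for differences in library composition. Library values are listed in the order of the replicate numbers (1 to 4 for H1.4 CFT and WT H1.4, 2 to 4 for GFP), and means carry the SD over n = 4, 4 and 3 libraries. Differences are log2 fold changes from edgeR's quasi-likelihood fit of all 11 libraries, with their SE, and the threshold is an adjusted p of 0.05 over all genes tested. CPM values do not account for transcript length, so levels are compared between groups and never between genes. In bulk samples such as these, fewer cells of a type and less RNA per cell cannot be told apart.

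Gene counts per library ran from 12070941 to 18846492. They were 16748377 to 18264770 for H1.4 CFT, 14205621 to 18846492 for WT H1.4 and 12070941 to 16923850 for GFP. Other measures of whole libraries moved with H1.4 CFT. The TMM factor was 1.017 to 1.057 with H1.4 CFT, 0.9699 to 0.9804 with WT H1.4 and 0.9838 to 0.9879 with GFP, and genes with a read numbered 23535 to 23807, 22049 to 22863 and 22064 to 22685. The summed level of 10 neuron markers was 3907 to 4547 CPM with H1.4 CFT, 5584 to 5714 with WT H1.4 and 5461 to 5739 with GFP, so that it was lowest in H1.4 CFT. From WT H1.4 to H1.4 CFT, 6 of the 10 fell and 2 rose, Gad1 (0.42 on the log2 scale) and Gad2 (0.41), while 7 fell and 0 rose against GFP. The summed level of 9 astrocyte markers was 1941 to 2010 CPM, 1505 to 1615 and 1899 to 2035, lowest in WT H1.4. For 8 oligodendrocyte-lineage markers it was 427 to 491, 436 to 518 and 427 to 524 CPM. For 7 microglial markers, 5 of which had too few reads to test, it was 7.95 to 12, 10.5 to 13.7 and 11.2 to 12.9 CPM. For 10 endothelial, mural and fibroblast markers it was 58.1 to 71.1, 54.7 to 69.4 and 74.7 to 81.8 CPM. No marker was at 0 in all libraries. The part of these shifts in the differences below was not tested.

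In H1.4 CFT relative to WT H1.4, 20 of the 68 tested members were past the threshold on the higher side and 5 on the lower side. Of all 17294 genes tested, 16.7% were past it on the higher side and 19.2% on the lower side. The median log2 difference of the members was 0.088, with 0.018 for all genes, and the members ranged from -0.51 to 0.53. In H1.4 CFT against GFP, which shares the H1.4 CFT libraries, 18 members were higher and 4 lower, with 13.3% and 16.2% of all genes, and the median was 0.11 (all genes 0.011). In WT H1.4 against GFP, 0 of 68 members passed, while 0.943% of all genes did. Of the members on the higher side, 11 of 20 against WT H1.4 and 8 of 18 against GFP were TAF genes, for which the set was picked. Among the TAFs 1 gene, Taf9b, was lower in both comparisons, and Mediator and the general factors also held genes on both sides.

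**Figure D1:**
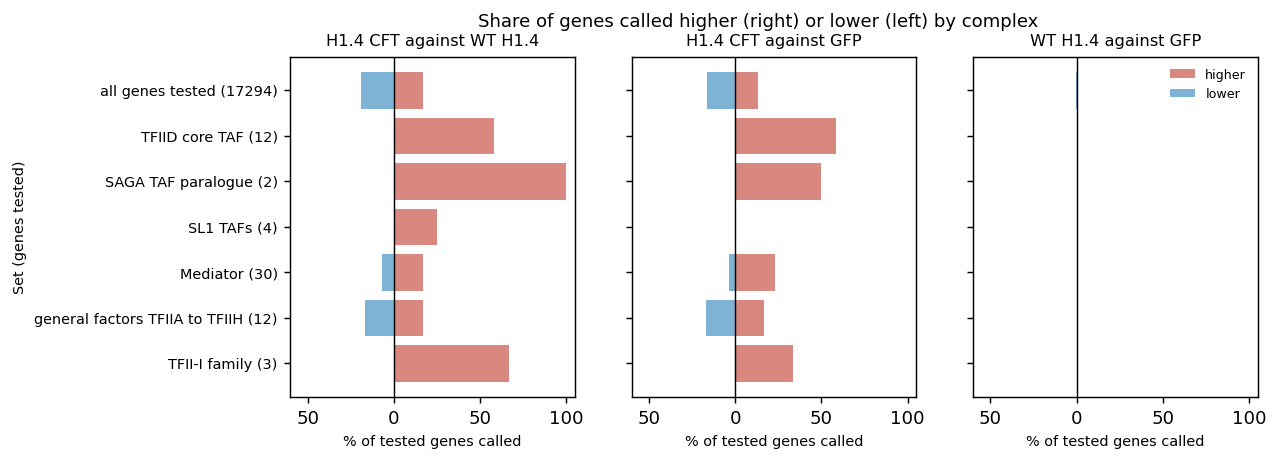
Percentage of tested genes past the adjusted p threshold, by complex and comparison, with the higher share to the right of 0 and the lower share to the left. The number of tested genes in each set is in parentheses. The TFIID core TAFs stand at 58.3% higher and 0% lower in both comparisons with H1.4 CFT, and no set of members has a bar in WT H1.4 against GFP. Taf genes were picked for being higher in H1.4 CFT, so their shares in these comparisons are a description.

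Library values of members also separated without overlap. The H1.4 CFT libraries all lay above the WT H1.4 libraries for 21 members and all below for 6, with 16.1% and 18.5% of all genes tested. Against GFP these numbers were 22 and 5, with 17.0% and 18.5%. Between WT H1.4 and GFP they were 4 above and 1 below, with 6.29% and 5.94%.

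The TFIID core TAFs held 7 members that were higher in each comparison with H1.4 CFT. Of 12 tested, 7 were past the threshold against WT H1.4 (Taf2, Taf3, Taf7, Taf10, Taf11, Taf12 and Taf13) and 7 against GFP (Taf2, Taf3, Taf7, Taf8, Taf10, Taf11 and Taf12), with 0 on the lower side in either. That is 58.3% higher in each, beside 16.7% and 13.3% of all genes. Because Taf genes were picked for being higher in H1.4 CFT, this excess follows from the choice and is no test. The medians of the 12 log2 differences were 0.23 and 0.26, and that of WT H1.4 against GFP was -0.013. The summed CPM of the core TAFs was 421, 419, 442 and 452 with H1.4 CFT, 378, 376, 382 and 373 with WT H1.4 and 366, 379 and 395 with GFP. All 4 sums in H1.4 CFT were above all 7 in the other groups. With replicate 4 of H1.4 CFT left out, or replicate 2 of GFP, the number higher against GFP was 4, and on replicates 1 and 2 alone 4 were higher against WT H1.4. With a log2 fold threshold of 0.25 the numbers were 3 against WT H1.4 and 1 against GFP, beside 4.65% and 3.64% of all genes.

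Taf3, whose protein reads methylated histone H3 at active promoters, had the largest core TAF difference. Its values were 21.3, 20.3, 25.3 and 23.3 CPM in the H1.4 CFT libraries, 15, 16.6, 17 and 15.4 CPM in those of WT H1.4 and 15.3, 15.1 and 17.8 CPM in those of GFP. Every H1.4 CFT library was above every other library. The mean was 22.6 ± 2.24 CPM with H1.4 CFT, 16.0 ± 0.934 with WT H1.4 and 16.1 ± 1.49 with GFP. The log2 difference was 0.50 (SE 0.087) against WT H1.4, 0.48 (SE 0.097) against GFP and -0.014 (SE 0.099) for WT H1.4 against GFP. A lncRNA gene on the other strand overlaps the span of Taf3, and its reads were not separated here.

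The histone-fold subunits, which pair with one another to build the lobes of TFIID, were next. Taf12, the partner of TAF4, was at 25.7, 27, 25 and 27.5 CPM in the H1.4 CFT libraries, 17.6, 20.8, 18 and 21.2 CPM in those of WT H1.4 and 19.1, 19.7 and 20.9 CPM in those of GFP. The lowest H1.4 CFT value was above the highest value of both other groups. Its log2 differences from WT H1.4 and GFP were 0.44 (SE 0.077) and 0.40 (SE 0.085). Taf11, whose protein pairs with TAF13, was at 19.5, 21.5, 25 and 24.6 CPM in the H1.4 CFT libraries, 16.8, 17.7, 16.8 and 15.7 CPM in those of WT H1.4 and 17.6, 18.8 and 18.6 CPM in those of GFP. H1.4 CFT overlapped neither other group, and H1.4 CFT 3 and 4 were the highest libraries. The log2 differences of Taf11 were 0.44 (SE 0.085) and 0.31 (SE 0.094). The second of these was not past the threshold without H1.4 CFT 3, H1.4 CFT 4 or GFP 2, with a range of 0.26 to 0.37 over all omissions of a library. Taf10, which is shared by TFIID and SAGA, was at 36.5, 35.5, 36.3 and 36.4 CPM in the H1.4 CFT libraries, 26.2, 24.8, 32.6 and 28 CPM in those of WT H1.4 and 26.9, 32.5 and 32.6 CPM in those of GFP. The H1.4 CFT libraries lay within 1 CPM of each other and above the others, while WT H1.4 was spread more widely. The log2 differences of Taf10 were 0.37 (SE 0.08) and 0.24 (SE 0.087), and the latter was lost in 7 of 11 omissions (all 4 H1.4 CFT libraries, WT H1.4 4, GFP 2 and GFP 3, with a range of 0.15 to 0.29). The span of Taf10 overlaps that of Ilk on the other strand.

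Taf13, the partner of TAF11, was at 30.9, 31.7, 35.4 and 40.3 CPM in the H1.4 CFT libraries, 30.3, 30.6, 30.9 and 28.5 CPM in those of WT H1.4 and 28.2, 30.9 and 29.9 CPM in those of GFP. H1.4 CFT 1 and 2 lay close to the other groups and H1.4 CFT 4 far above them, and H1.4 CFT 1 exceeded the highest WT H1.4 and GFP libraries by less than the rounding. The log2 difference was 0.20 (SE 0.077) against WT H1.4 and 0.22 (SE 0.084) against GFP, of which only the first passed. It was lost in 8 of 11 omissions, which were those of each WT H1.4 library, H1.4 CFT 3 and 4, and GFP 3 and 4, with a range of 0.12 to 0.25. The difference from WT H1.4 was also not past the threshold with limma-voom, with DESeq2 or with only the groups compared. On replicates 1 and 2 alone it was 0.041. With the replicate number as a block, Taf13 passed against GFP too. Taf8, which pairs with TAF10, had means of 21.9 ± 2.1, 19.3 ± 0.453 and 16.8 ± 1.68 CPM in H1.4 CFT, WT H1.4 and GFP. Its log2 differences were 0.18 (SE 0.082) and 0.39 (SE 0.092), the latter past the threshold.

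Among the larger subunits, Taf2, which contacts DNA at the start site, was at 61.3, 65.5, 63.5 and 65 CPM in the H1.4 CFT libraries, 54.4, 52.1, 47.9 and 47.8 CPM in those of WT H1.4 and 50.1, 49.7 and 53 CPM in those of GFP. H1.4 CFT overlapped neither other group, and the log2 differences were 0.34 (SE 0.054) and 0.33 (SE 0.059). Taf7, whose protein binds TAF1 and restrains its enzyme activity, was at 20.5, 19.4, 21.6 and 26.5 CPM in the H1.4 CFT libraries, 18.5, 17.9, 18.2 and 19.5 CPM in those of WT H1.4 and 17.1, 17.8 and 19.1 CPM in those of GFP. H1.4 CFT 4 stood highest, and H1.4 CFT 2 was below the top WT H1.4 library. The log2 difference from WT H1.4 was 0.25 (SE 0.09) and that from GFP 0.29 (SE 0.1). The first was lost without WT H1.4 1, 2 or 3 or H1.4 CFT 3 or 4 (range 0.15 to 0.31). The second was lost without H1.4 CFT 4, GFP 2 or GFP 3 (range 0.19 to 0.35). On replicates 1 and 2 alone the differences of Taf7 were 0.13 and 0.22, and on replicates 3 and 4 alone they were 0.36 and 0.38. GFP has no replicate 1, so the 0.22 rests on GFP 2 alone.

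The other core TAFs gave smaller differences, none past the threshold. Taf1, the largest subunit and the scaffold for TAF7, was at 69.1, 67.5, 72.7 and 71.4 CPM in the H1.4 CFT libraries, 73.2, 66.3, 72.1 and 69.2 CPM in those of WT H1.4 and 71.5, 70.5 and 78.9 CPM in those of GFP. The 3 groups overlapped, with log2 differences of -0.0019 (SE 0.05) and -0.071 (SE 0.055). Taf4, the partner of TAF12, was at 35.6, 36.6, 36.8 and 34.8 CPM in the H1.4 CFT libraries, 34.1, 32.2, 34 and 33.7 CPM in those of WT H1.4 and 33.2, 32.6 and 32.9 CPM in those of GFP. The H1.4 CFT libraries were all above the others by a narrow margin, and the log2 differences were 0.10 (SE 0.056) and 0.13 (SE 0.061). Taf5, a WD-repeat subunit, had the lowest difference of the core TAFs, at 23.2, 18.2, 17.9 and 24.2 CPM in the H1.4 CFT libraries, 21.9, 24.1, 22.5 and 22.4 CPM in those of WT H1.4 and 19.5, 18.9 and 19.5 CPM in those of GFP. H1.4 CFT split into a lower pair (2 and 3) and a higher pair (1 and 4), which spanned both other groups. The log2 difference was -0.12 (SE 0.091) against WT H1.4 and 0.11 (SE 0.1) against GFP. Taf6, the partner of TAF9, had means of 56.5 ± 1.53, 52.3 ± 0.802 and 53.8 ± 1.7 CPM and log2 differences of 0.11 (SE 0.048) and 0.072 (SE 0.052).

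Taf9, the remaining core TAF, had 0 reads in all 11 libraries, where 3 reads would have been 0.159 to 0.249 CPM. In the RefSeq gene table of the GRCr8 build Taf9 lies within the span of Ak6, which encodes an adenylate kinase and has the same start. Ak6 had means of 15.3 ± 1.03 CPM with H1.4 CFT, 11.2 ± 0.926 with WT H1.4 and 10.3 ± 0.96 with GFP. Reads that fell in more than 1 gene made up 0.396% to 0.430% of each library and were counted for none. Whether the reads of Taf9 were among them was not tested, and the 0 is not read here as a lack of expression. Its pseudogene Taf9-ps was at 1.48, 1.41, 1.31 and 1.4 CPM in the H1.4 CFT libraries, 1.03, 1.45, 1.32 and 1.34 CPM in those of WT H1.4 and 0.872, 1.34 and 1.2 CPM in those of GFP, with overlapping groups and log2 differences of 0.13 (SE 0.25) and 0.30 (SE 0.28). Reads that align to both a pseudogene and its parent may have been left out of both counts, which was not tested.

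Of the TAF paralogues, which can replace their relatives in TFIID of particular cells, Taf9b went the other way from the core. Its values were 23.2, 24.9, 21.1 and 22.4 CPM in the H1.4 CFT libraries, 30.4, 31.7, 25.3 and 26.9 CPM in those of WT H1.4 and 30.2, 30.4 and 33.1 CPM in those of GFP. All H1.4 CFT libraries were below all others, with means of 22.9 ± 1.61, 28.6 ± 2.97 and 31.2 ± 1.63 CPM. The log2 difference of Taf9b was -0.32 (SE 0.079) against WT H1.4, -0.45 (SE 0.086) against GFP and -0.13 (SE 0.085) for WT H1.4 against GFP. TAF9B is the paralogue of TAF9 and is known for a role in neuronal gene expression. Taf4b, the paralogue of Taf4 best known from germ cells, was at 4.09, 4.9, 3.41 and 5.08 CPM in the H1.4 CFT libraries, 3.85, 3.4, 4.19 and 3.09 CPM in those of WT H1.4 and 4.21, 3.53 and 4.81 CPM in those of GFP. The groups overlapped, and the differences were 0.26 (SE 0.17) and 0.053 (SE 0.19). Taf7l, a germ-cell and fat-cell paralogue of Taf7, had 55 reads in all (23 with H1.4 CFT, 11 with WT H1.4 and 21 with GFP) and was not tested. Its library values were 0.284, 0.338, 0.284 and 0.363 CPM in the H1.4 CFT libraries, 0.0542, 0.217, 0.221 and 0.182 CPM in those of WT H1.4 and 0.872, 0.336 and 0.301 CPM in those of GFP, of which the highest was GFP 2. Its pseudogene Taf7l-ps1 had 1 read in all.

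**Figure D2:**
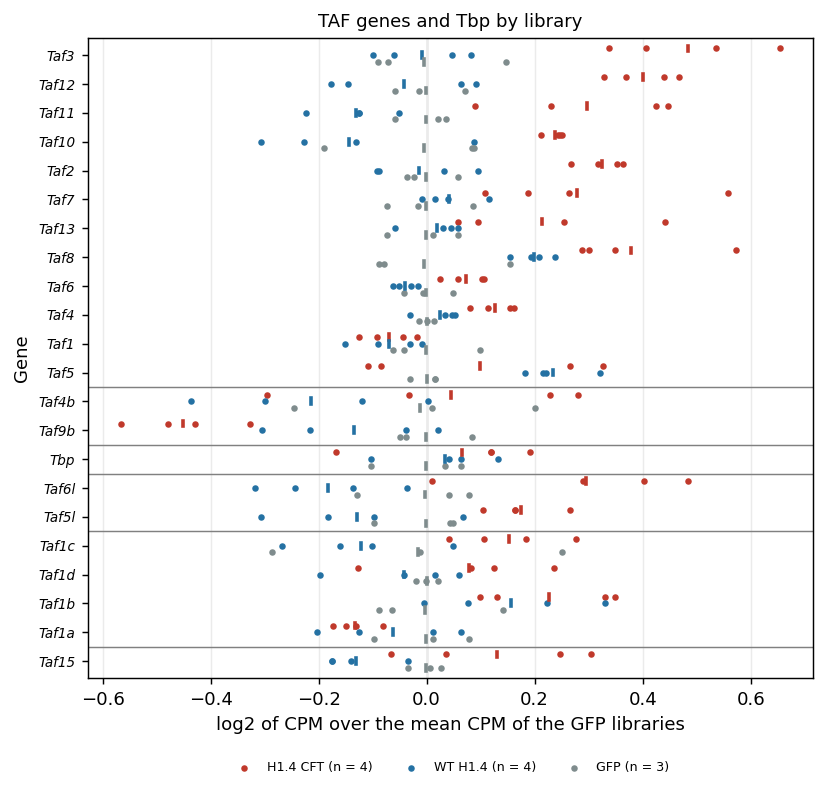
CPM of each TAF gene and of Tbp in every library, as the log2 ratio to the mean of the 3 GFP libraries. Points are libraries, short vertical bars are group means of the log2 ratios, and lines part core TAFs, paralogues, Tbp, the SAGA TAFs, the SL1 TAFs and Taf15. The red points of Taf3, Taf12, Taf11, Taf10 and Taf2 lie to the right of all blue and grey points, and those of Taf9b lie to the left.

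Tbp, the DNA-binding subunit of TFIID that polymerases I and III use as well, was at 21.1, 17.3, 21.1 and 22.2 CPM in the H1.4 CFT libraries, 21.3, 20, 20.3 and 18.1 CPM in those of WT H1.4 and 18.1, 19.9 and 20.3 CPM in those of GFP. The groups overlapped fully. The log2 difference of Tbp was 0.036 (SE 0.085) against WT H1.4, 0.072 (SE 0.094) against GFP and 0.036 (SE 0.095) between WT H1.4 and GFP. Of 4 tested relatives and regulators of TBP (Tbpl1, Btaf1, Dr1 and Drap1), 0 passed in H1.4 CFT relative to WT H1.4. Drap1, a subunit of the NC2 repressor, fell against GFP (log2 difference -0.16, SE 0.056, adjusted p = 0.0319 by edgeR). That is 1 of the 4 (25%), beside 16.2% of all genes that fell against GFP. Against WT H1.4, 16.7% of all genes were higher and 19.2% lower.

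Both TAFs that belong to SAGA and not to TFIID were higher. SAGA is a coactivator that acetylates histones at promoters, and TAF5L and TAF6L take the places of TAF5 and TAF6 in it. Taf6l was at 26.2, 31.8, 34.4 and 36.4 CPM in the H1.4 CFT libraries, 20.9, 22, 23.7 and 25.4 CPM in those of WT H1.4 and 23.8, 26.8 and 27.5 CPM in those of GFP. H1.4 CFT 1 was the lowest of its group, above the WT H1.4 libraries but below 2 GFP libraries. The log2 differences of Taf6l were 0.49 (SE 0.092) against WT H1.4 and 0.31 (SE 0.1) against GFP, and the latter was lost without H1.4 CFT 3, H1.4 CFT 4, GFP 2 or GFP 3 (range 0.24 to 0.39). Taf5l was at 24.8, 23.8, 26.6 and 24.8 CPM in the H1.4 CFT libraries, 19.5, 17.9, 20.7 and 23.2 CPM in those of WT H1.4 and 22.8, 22.9 and 20.7 CPM in those of GFP. Its H1.4 CFT libraries were above the others, with differences of 0.30 (SE 0.08), past the threshold, and 0.18 (SE 0.087), not past it. Among 16 other SAGA and ATAC subunits, 1 rose and 3 fell from WT H1.4 to H1.4 CFT, and 1 rose and 1 fell against GFP. The first shares are 6.25% and 18.8%, beside 16.7% and 19.2% of all genes. Against GFP they are 6.25% and 6.25%, beside 13.3% and 16.2%. Usp22, the deubiquitinase of SAGA, had means of 304 ± 26.4, 461 ± 24.3 and 353 ± 29.4 CPM in H1.4 CFT, WT H1.4 and GFP. It fell from WT H1.4 to H1.4 CFT (log2 difference -0.60, SE 0.062, adjusted p = 2.96e-06 by edgeR) and rose in WT H1.4 against GFP (0.38, SE 0.068, adjusted p = 0.0101 by edgeR).

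The SL1 factor, which recruits RNA polymerase I to ribosomal DNA, contains TBP and the TAFs Taf1a to Taf1d. Of these, 1 of 4 (25%) was higher against WT H1.4 and 0 of 4 against GFP, beside 16.7% and 13.3% of all genes. None was lower. Taf1c, the highest, was at 20.1, 19.2, 21.2 and 22.6 CPM in the H1.4 CFT libraries, 15.5, 17.4, 16.7 and 19.3 CPM in those of WT H1.4 and 15.3, 22.2 and 18.5 CPM in those of GFP. The groups overlapped, through WT H1.4 4 and through GFP 3, and the log2 differences were 0.27 (SE 0.1) and 0.16 (SE 0.11). The first was lost without WT H1.4 1, 2 or 3 or H1.4 CFT 3 or 4 (range 0.22 to 0.33). Taf1a, the lowest, was at 24.1, 25.7, 24.8 and 24.5 CPM in the H1.4 CFT libraries, 23.6, 28.4, 24.9 and 27.4 CPM in those of WT H1.4 and 25.4, 27.4 and 28.7 CPM in those of GFP, with overlapping groups and differences of -0.071 (SE 0.072) and -0.14 (SE 0.079). Taf1b and Taf1d had differences of 0.063 and 0.12 from WT H1.4 and 0.23 and 0.084 from GFP. Of all genes, 19.2% fell against WT H1.4 and 16.2% against GFP. Of 11 partners of SL1 in RNA polymerase I initiation, 0 rose and 1 fell (9.09%) in each comparison with H1.4 CFT. The 1 was Polr1a, the largest subunit of RNA polymerase I, with log2 differences of -0.36 (SE 0.072, adjusted p = 0.000582 by edgeR) and -0.53 (SE 0.077, adjusted p = 4.5e-05).

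Taf15 encodes an RNA-binding protein that was first found with TFIID, and it split the H1.4 CFT libraries. It was at 137, 147, 170 and 177 CPM in the H1.4 CFT libraries, 140, 130, 127 and 127 CPM in those of WT H1.4 and 144, 140 and 146 CPM in those of GFP. H1.4 CFT 3 and 4 were above all other libraries, H1.4 CFT 2 was just above the top GFP library, and H1.4 CFT 1 lay within the WT H1.4 range. The log2 difference from WT H1.4 was 0.27 (SE 0.067), past the threshold, and that from GFP was 0.14 (SE 0.073). On replicates 1 and 2 alone these were 0.068 and -0.025, and on replicates 3 and 4 alone 0.45 and 0.28. The -0.025 rests on GFP 2 as the only GFP library. Ewsr1, which encodes a related RNA-binding protein, had a mean of 223 ± 14.1 CPM in H1.4 CFT and a log2 difference of -0.0015 (SE 0.05) from WT H1.4.

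Mediator had 30 genes in the set, all tested. In H1.4 CFT relative to WT H1.4, 5 were higher (Med6, Med13l, Med15, Med27 and Med29) and 2 lower (Med1 and Med12l), which is 16.7% and 6.67% of the 30, beside 16.7% and 19.2% of all genes, with a median log2 difference of 0.043. Against GFP, 7 were higher (Med6, Med13l, Med15, Med16, Med23, Med27 and Med29) and 1 lower (Med12l), which is 23.3% and 3.33%, beside 13.3% and 16.2% of all genes, with a median of 0.073. The summed CPM of the 30 was 1452, 1433, 1471 and 1446 with H1.4 CFT, 1420, 1424, 1415 and 1433 with WT H1.4 and 1389, 1362 and 1396 with GFP.

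The head module contacts RNA polymerase II, and 1 of its 7 genes, Med6, was past the threshold in each comparison. This share of 14.3% is near the 16.7% and 13.3% of all genes that were higher. Med6 was at 11.5, 11.1, 12.7 and 12 CPM in the H1.4 CFT libraries, 8.78, 8.03, 8.55 and 9.89 CPM in those of WT H1.4 and 9.15, 9.32 and 9.26 CPM in those of GFP. H1.4 CFT was above both other groups without overlap, and GFP was the tightest group. The means were 11.8 ± 0.658, 8.81 ± 0.785 and 9.24 ± 0.0826 CPM, and the log2 differences were 0.42 (SE 0.099) and 0.36 (SE 0.11). The second was lost without H1.4 CFT 3 or GFP 4 (range 0.32 to 0.38). Med8 had the lowest difference of the head, at 8.34, 9.63, 9.6 and 7.98 CPM in the H1.4 CFT libraries, 8.67, 8.61, 10.2 and 9.35 CPM in those of WT H1.4 and 7.99, 8.23 and 9.98 CPM in those of GFP. Its groups overlapped, with log2 differences of -0.054 (SE 0.11) and 0.017 (SE 0.13). The other 5 head genes (Med11, Med17, Med18, Med20 and Med22) had differences from WT H1.4 of 0.31, 0.07, 0.12, 0.11 and -0.022.

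Of the 4 genes of the joint between head and tail, Med27 and Med29 were higher in both comparisons. That is 50%, beside 16.7% and 13.3% of all genes. Med29 was at 23, 24.4, 25.2 and 25.3 CPM in the H1.4 CFT libraries, 17.4, 17.6, 16.5 and 16.3 CPM in those of WT H1.4 and 18.3, 19.1 and 19.6 CPM in those of GFP. All H1.4 CFT libraries were above all others, and all WT H1.4 libraries were below GFP. The means were 24.5 ± 1.06, 16.9 ± 0.631 and 19.0 ± 0.647 CPM. The log2 difference of Med29 was 0.53 (SE 0.071) against WT H1.4, the highest of all 68 tested members, 0.36 (SE 0.078) against GFP and -0.17 (SE 0.08) for WT H1.4 against GFP. Med27 was at 43.3, 39.1, 47 and 48.5 CPM in the H1.4 CFT libraries, 35, 31.8, 35.1 and 33.6 CPM in those of WT H1.4 and 38.4, 35.9 and 34.1 CPM in those of GFP. Both other groups lay below H1.4 CFT, with H1.4 CFT 2 only just above the top GFP library, and the log2 differences were 0.39 (SE 0.069) and 0.30 (SE 0.076). Med30 was at 23.5, 23.4, 20.6 and 22.2 CPM in the H1.4 CFT libraries, 21.5, 24.1, 23.7 and 20.6 CPM in those of WT H1.4 and 21.9, 20.3 and 20.3 CPM in those of GFP, with overlapping groups and differences of -0.0021 (SE 0.075) and 0.10 (SE 0.084). Med28 had differences of 0.073 (SE 0.07) and 0.13 (SE 0.078).

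In the middle module and its backbone, 0 of 10 genes were higher in either comparison, beside 16.7% and 13.3% of all genes. Med1, the subunit that binds nuclear receptors, was at 97.7, 93.7, 97.1 and 97 CPM in the H1.4 CFT libraries, 107, 105, 102 and 113 CPM in those of WT H1.4 and 102, 102 and 105 CPM in those of GFP. All H1.4 CFT libraries were below all others. The log2 difference of Med1 was -0.15 (SE 0.042) against WT H1.4, past the threshold unless WT H1.4 4 was left out (range -0.17 to -0.12), and -0.10 (SE 0.046) against GFP, not past it. Med14, the backbone that joins the modules, was at 73.2, 77.8, 74.9 and 75 CPM in the H1.4 CFT libraries, 74.4, 78.3, 75.4 and 80.3 CPM in those of WT H1.4 and 78.5, 78.1 and 75.9 CPM in those of GFP. The groups overlapped, and the differences were -0.035 (SE 0.044) and -0.042 (SE 0.048). Med26, which links Mediator to elongation factors, was at 19, 20.3, 19.5 and 20.1 CPM in the H1.4 CFT libraries, 15.3, 20.5, 19.7 and 19.2 CPM in those of WT H1.4 and 20.1, 16 and 16 CPM in those of GFP. The groups overlapped in both comparisons, as WT H1.4 2 and GFP 2 were as high as H1.4 CFT, and the differences were 0.083 (SE 0.095) and 0.19 (SE 0.11).

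The ends of the range in the middle module were Med4 and Med19. Med4 was at 24.4, 24.3, 22.3 and 24.1 CPM in the H1.4 CFT libraries, 22.9, 23.9, 20.1 and 20.7 CPM in those of WT H1.4 and 22.1, 19.5 and 25.7 CPM in those of GFP, with overlapping groups and log2 differences of 0.12 (SE 0.085) and 0.076 (SE 0.093). Med19 was at 29.3, 26.6, 30.2 and 28.8 CPM in the H1.4 CFT libraries, 31.4, 34.1, 30.7 and 32.9 CPM in those of WT H1.4 and 28.9, 34.8 and 35.3 CPM in those of GFP. Its H1.4 CFT libraries were all below WT H1.4 but overlapped GFP 2, and the differences were -0.17 (SE 0.071) and -0.20 (SE 0.078), neither past the threshold. Both passed when GFP 2 was left out (-0.17 and -0.29), and the second also on replicates 3 and 4 alone (-0.25). The other 5 (Med7, Med9, Med10, Med21 and Med31) had differences from WT H1.4 of -0.043, -0.05, 0.02, 0.011 and 0.0056.

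The tail module receives signals from activators, and 1 of its 5 genes was higher with WT H1.4 as the reference and 3 of 5 with GFP. These are 20% and 60%, beside 16.7% and 13.3% of all genes. Med15 was at 62.8, 65.1, 60.3 and 63 CPM in the H1.4 CFT libraries, 57.2, 58.2, 59.1 and 56.5 CPM in those of WT H1.4 and 54.9, 53.9 and 54.2 CPM in those of GFP. H1.4 CFT was above WT H1.4 and WT H1.4 above GFP, with no overlap at either step. The log2 difference of Med15 was 0.12 (SE 0.046) against WT H1.4, 0.21 (SE 0.051) against GFP and 0.088 (SE 0.051) for WT H1.4 against GFP. The first was lost in 9 of 11 omissions, those other than H1.4 CFT 3 and GFP 2 (range 0.10 to 0.14). It was also lost with the replicate number as a block, where it was 0.12, and with RLE scaling or DESeq2. The same held with no low-count filter and on replicates 3 and 4 alone (0.094). Med16 and Med23 were higher against GFP by 0.24 (SE 0.056) and 0.18 (SE 0.057). The difference of Med23 was lost without H1.4 CFT 4, GFP 3 or GFP 4 (range 0.14 to 0.22). Med25 had differences of 0.093 (SE 0.043) and 0.054 (SE 0.047).

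Med24, also of the tail, was the member closest to the threshold in WT H1.4 against GFP. It was at 199, 190, 181 and 174 CPM in the H1.4 CFT libraries, 204, 218, 192 and 195 CPM in those of WT H1.4 and 180, 171 and 174 CPM in those of GFP. All WT H1.4 libraries were above all GFP libraries, and H1.4 CFT overlapped both. The log2 difference for WT H1.4 against GFP was 0.21 (SE 0.053) with an adjusted p of 0.0752 by edgeR. DESeq2 called this 1 gene of the 68 and limma-voom called 0. With edgeR, Med24 passed when H1.4 CFT 4 was left out of the fit (0.17 to 0.23 over all omissions), with only the groups compared and with no low-count filter. It also passed on replicates 3 and 4 alone (0.16). On replicates 1 and 2 alone the difference of Med24 was 0.22, with GFP 2 as the only GFP library. From WT H1.4 to H1.4 CFT its difference was -0.12 (SE 0.049), which was past the threshold with the replicate number as a block, with no low-count filter, on replicates 1 and 2 or 3 and 4 alone, and without WT H1.4 3 or H1.4 CFT 1.

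**Figure D3:**
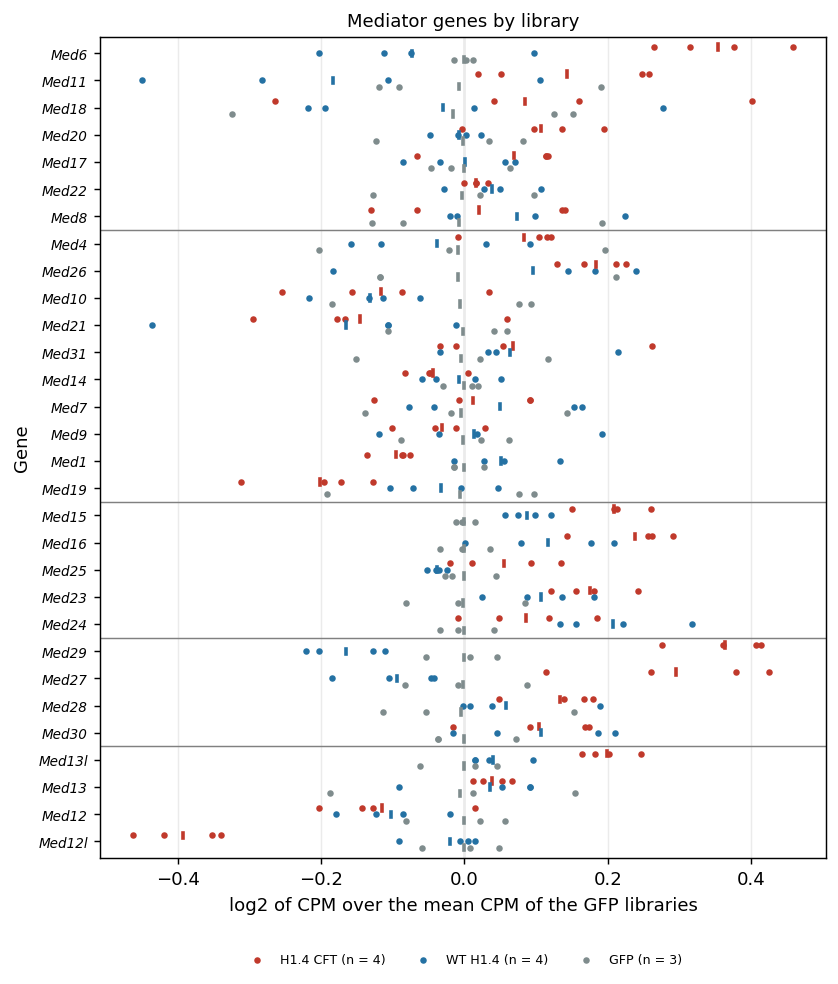
CPM of each Mediator gene in every library, as the log2 ratio to the mean of the 3 GFP libraries, with genes parted by lines into head, middle and backbone, tail, head-tail joint and kinase module. Points are libraries and short vertical bars are group means of the log2 ratios. Red points of Med6, Med29, Med27, Med15 and Med13l lie to the right of all others and those of Med12l and Med1 to the left, and for most other genes the colours mix.

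The kinase module detaches from Mediator and modulates its contact with the polymerase. In each comparison with H1.4 CFT, 1 of its 4 genes in the set was higher and 1 lower, or 25% each. Of all genes, 16.7% were higher and 19.2% lower against WT H1.4, and 13.3% and 16.2% against GFP. Med12l, a paralogue of the CDK8 activator MED12, was at 33.1, 32.8, 30.4 and 31.3 CPM in the H1.4 CFT libraries, 41.7, 42, 39.3 and 42.3 CPM in those of WT H1.4 and 43.3, 40.2 and 42.1 CPM in those of GFP. All H1.4 CFT libraries were below all others, with means of 31.9 ± 1.27, 41.3 ± 1.4 and 41.9 ± 1.56 CPM. The log2 differences of Med12l were -0.37 (SE 0.057) and -0.39 (SE 0.062), with -0.021 (SE 0.062) for WT H1.4 against GFP. The long span of Med12l contains several other protein-coding genes in the GRCr8 table, among them the microglial receptor gene P2ry12. P2ry12 was at 7.56 ± 1.65 CPM with H1.4 CFT, 11.4 ± 1.25 with WT H1.4 and 10.7 ± 1.01 with GFP, and how reads in the shared span were assigned was not tested. Med12 itself was at 37.5, 37.1, 41.4 and 35.6 CPM in the H1.4 CFT libraries, 40.4, 37.6, 38.6 and 36.2 CPM in those of WT H1.4 and 41.6, 38.7 and 42.6 CPM in those of GFP. Its groups overlapped, with differences of -0.014 (SE 0.062) and -0.12 (SE 0.068).

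Med13l and Med13 encode alternative links between the kinase module and the core. Med13l was at 152, 154, 161 and 156 CPM in the H1.4 CFT libraries, 139, 137, 137 and 145 CPM in those of WT H1.4 and 140, 137 and 130 CPM in those of GFP. H1.4 CFT was above both other groups without overlap, and the log2 differences were 0.16 (SE 0.04) and 0.20 (SE 0.044). Med13 was at 109, 107, 110 and 106 CPM in the H1.4 CFT libraries, 112, 98.7, 109 and 112 CPM in those of WT H1.4 and 117, 92.3 and 106 CPM in those of GFP. Its groups overlapped, with differences of 0.0016 (SE 0.058) and 0.039 (SE 0.063). Of the 3 other genes of the module, Cdk19, a paralogue of the kinase gene Cdk8, was at 94.6 ± 1.39, 107 ± 1.02 and 86.4 ± 6.28 CPM. It rose in WT H1.4 against GFP (log2 difference 0.31, SE 0.049, adjusted p = 0.00224 by edgeR), fell from WT H1.4 to H1.4 CFT (-0.18, SE 0.044, adjusted p = 0.00343) and rose in H1.4 CFT against GFP (0.13, SE 0.049, adjusted p = 0.0473). Cdk8 was at 64.3 ± 2.46, 68.7 ± 2.3 and 74.1 ± 0.657 CPM and fell in H1.4 CFT against GFP (-0.21, SE 0.05, adjusted p = 0.00412). Ccnc, the cyclin of both kinases, passed in no comparison. From WT H1.4 to H1.4 CFT, 1 of these 3 genes (33.3%) fell, beside 19.2% of all genes. In H1.4 CFT against GFP, 33.3% rose and 33.3% fell, beside 13.3% and 16.2%. In WT H1.4 against GFP, 33.3% rose, beside 0.434%.

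The general factors TFIIA to TFIIH had 12 tested genes, with 2 higher (Gtf2h1 and Gtf2h3) and 2 lower (Gtf2e2 and Gtf2f2) against WT H1.4, and 2 higher (Gtf2a1 and Gtf2h1) and 2 lower (Gtf2e2 and Gtf2f2) against GFP. In each comparison 16.7% were higher and 16.7% lower. These shares are near those of all genes, 16.7% and 19.2% against WT H1.4 and 13.3% and 16.2% against GFP. The medians of the 12 were 0.05 and 0.0089. Gtf2f2, the small subunit of TFIIF, which escorts the polymerase to the promoter, had the lowest log2 difference from WT H1.4 of all 68 members. It was at 32.4, 33.3, 31.2 and 35.5 CPM in the H1.4 CFT libraries, 46.6, 50.2, 45.7 and 47 CPM in those of WT H1.4 and 47.6, 44.6 and 47 CPM in those of GFP. All H1.4 CFT libraries were below all others, with means of 33.1 ± 1.81, 47.4 ± 1.98 and 46.4 ± 1.6 CPM. The log2 differences were -0.51 (SE 0.058) and -0.49 (SE 0.063), and 0.028 (SE 0.062) between WT H1.4 and GFP. Gtf2f1, the large subunit of TFIIF, was at 55, 59.6, 65.6 and 65.5 CPM in the H1.4 CFT libraries, 61.6, 63.3, 66.7 and 60.1 CPM in those of WT H1.4 and 63.2, 69 and 65.8 CPM in those of GFP. Its groups overlapped, with differences of -0.034 (SE 0.059) and -0.10 (SE 0.064). The gene Kctd4 lies within the span of Gtf2f2 on the other strand, and its reads were not separated here.

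TFIIE, which brings TFIIH to the promoter, showed a smaller contrast of the same kind. Gtf2e2, its beta subunit, was at 27.6, 28, 25.4 and 26 CPM in the H1.4 CFT libraries, 29.3, 33.9, 30.7 and 28.8 CPM in those of WT H1.4 and 30.9, 34.4 and 32.8 CPM in those of GFP. All H1.4 CFT libraries were below all others. The log2 differences of Gtf2e2 were -0.19 (SE 0.068) and -0.29 (SE 0.074). The first was lost without WT H1.4 2, WT H1.4 3, H1.4 CFT 3 or H1.4 CFT 4 (range -0.22 to -0.15). Gtf2e1, its alpha subunit, was at 41.4, 39.9, 39.7 and 36.6 CPM in the H1.4 CFT libraries, 42.1, 39.9, 40.3 and 34.3 CPM in those of WT H1.4 and 40.8, 38.7 and 37.8 CPM in those of GFP. The groups overlapped, with differences of 0.0066 (SE 0.066) and 0.011 (SE 0.073).

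**Figure D4:**
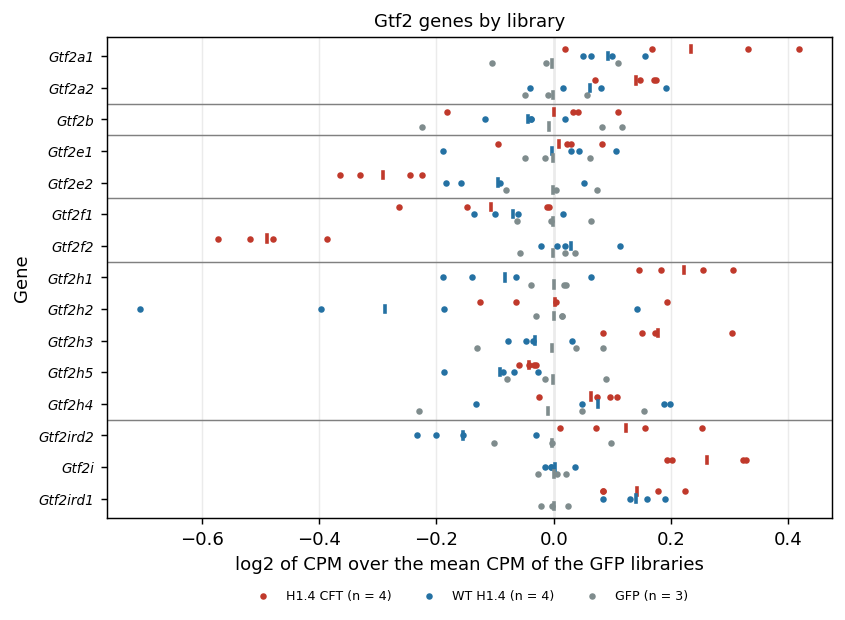
CPM of each Gtf2 gene in every library, as the log2 ratio to the mean of the 3 GFP libraries, with lines between TFIIA, TFIIB, TFIIE, TFIIF, TFIIH and the TFII-I family. Points are libraries and short vertical bars are group means of the log2 ratios. Red points of Gtf2f2 and Gtf2e2 lie to the left of all others and those of Gtf2h1 and Gtf2i to the right.

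Read counts of partner genes were set against each other within each library, which removes the scaling of the library. These 4 pairs were chosen after the values were seen and are a description. The ratio of Gtf2f2 to Gtf2f1 reads was 0.589, 0.559, 0.476 and 0.542 with H1.4 CFT, 0.756, 0.793, 0.685 and 0.782 with WT H1.4 and 0.753, 0.646 and 0.714 with GFP, with H1.4 CFT below both other groups. The ratio of Gtf2e2 to Gtf2e1 was 0.639 to 0.712 with H1.4 CFT, 0.696 to 0.848 with WT H1.4 and 0.758 to 0.889 with GFP, so that H1.4 CFT overlapped WT H1.4 and not GFP. The ratio of Med12l to Med12 was 0.735 to 0.885, 1.02 to 1.17 and 0.989 to 1.04, lowest in H1.4 CFT without overlap. The ratio of Med13l to Med13 was 1.4 to 1.47, 1.25 to 1.39 and 1.20 to 1.48, where H1.4 CFT was above WT H1.4 and within the range of GFP.

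**Figure D5:**
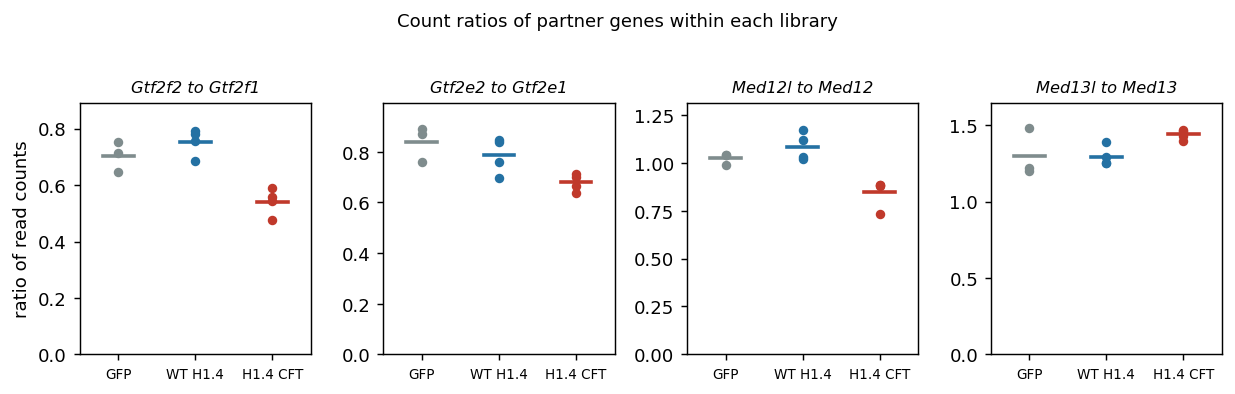
Ratio of the read counts of partner genes within each library, from 0, for 4 pairs. Points are libraries (GFP n = 3, WT H1.4 n = 4, H1.4 CFT n = 4) and lines are group means. The H1.4 CFT points of Gtf2f2 to Gtf2f1 (0.476 to 0.589) and of Med12l to Med12 (0.735 to 0.885) lie below those of both other groups.

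TFIIH opens the DNA and phosphorylates the polymerase. Gtf2h1, a core subunit, was at 54, 55.4, 60.3 and 58.2 CPM in the H1.4 CFT libraries, 42.8, 51, 44.3 and 46.7 CPM in those of WT H1.4 and 47.5, 49.4 and 49.5 CPM in those of GFP. H1.4 CFT was above both other groups without overlap, with log2 differences of 0.31 (SE 0.059) and 0.22 (SE 0.064). Gtf2h3, another core subunit, had means of 27.2 ± 1.8, 23.4 ± 0.734 and 24.0 ± 1.79 CPM and differences of 0.21 (SE 0.071), past the threshold, and 0.18 (SE 0.078), not past it. The first was lost without WT H1.4 1, WT H1.4 3 or H1.4 CFT 3 (range 0.17 to 0.25). Gtf2h4, at the low end, was at 12.3, 11.3, 12.1 and 12.4 CPM in the H1.4 CFT libraries, 10.5, 11.9, 13.1 and 13.2 CPM in those of WT H1.4 and 9.81, 12.8 and 11.9 CPM in those of GFP, with overlapping groups and differences of -0.02 (SE 0.1) and 0.066 (SE 0.12). Gtf2h2 and Gtf2h5 had differences from WT H1.4 of 0.25 (SE 0.13) and 0.049 (SE 0.051). Of the 5 other TFIIH genes, Ercc3, a DNA translocase, rose from WT H1.4 to H1.4 CFT (0.20, SE 0.065, adjusted p = 0.0225 by edgeR), and none passed against GFP. That 1 of 5 is 20%, near the 16.7% of all genes that were higher against WT H1.4. Against GFP, 13.3% of all genes were higher and 16.2% lower.

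TFIIA steadies TBP on DNA. Gtf2a1, its large precursor subunit, was at 41.4, 45.9, 51.4 and 54.6 CPM in the H1.4 CFT libraries, 42.3, 45.5, 42.7 and 43.8 CPM in those of WT H1.4 and 38, 44.1 and 40.5 CPM in those of GFP. H1.4 CFT 3 and 4 were above all other libraries, while H1.4 CFT 1 was below every WT H1.4 library and among GFP. The log2 difference was 0.15 (SE 0.074) against WT H1.4 and 0.25 (SE 0.081) against GFP. The latter, past the threshold, was lost without H1.4 CFT 3, H1.4 CFT 4, GFP 2 or GFP 4 (range 0.18 to 0.31). On replicates 1 and 2 alone the differences were -0.0033 and 0.20, the latter with GFP 2 as the only GFP library. On 3 and 4 alone they were 0.30 and 0.33. Gtf2a2, its small subunit, was at 42.6, 40.4, 43.3 and 43.4 CPM in the H1.4 CFT libraries, 38.9, 43.9, 37.4 and 40.7 CPM in those of WT H1.4 and 37.2, 38.2 and 40 CPM in those of GFP. H1.4 CFT overlapped WT H1.4 and was above GFP, with differences of 0.079 (SE 0.06) and 0.14 (SE 0.066). Gtf2a1l, a germ-cell paralogue, had 42 reads in all and was not tested. Gtf2b, the single gene of TFIIB, which bridges TBP and the polymerase, was at 20.3, 17.4, 20.2 and 21.3 CPM in the H1.4 CFT libraries, 19.2, 20, 19.2 and 18.2 CPM in those of WT H1.4 and 16.9, 21.4 and 20.9 CPM in those of GFP. Its groups overlapped, with differences of 0.05 (SE 0.087) and 0.0068 (SE 0.095).

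The TFII-I family shares the Gtf2 name but encodes DNA-binding regulators, whose genes lie in the interval lost in Williams syndrome in humans. Gtf2i was at 321, 319, 350 and 349 CPM in the H1.4 CFT libraries, 278, 276, 278 and 286 CPM in those of WT H1.4 and 274, 283 and 280 CPM in those of GFP. H1.4 CFT was above both other groups, which were alike, with means of 335 ± 17.2, 279 ± 4.41 and 279 ± 4.37 CPM. The log2 differences of Gtf2i were 0.26 (SE 0.041) and 0.26 (SE 0.044), with 0.0014 (SE 0.044) between WT H1.4 and GFP. Gtf2ird2 was at 33.7, 32.3, 38.2 and 35.7 CPM in the H1.4 CFT libraries, 31.4, 27.9, 27.3 and 28.8 CPM in those of WT H1.4 and 32, 34.3 and 29.9 CPM in those of GFP. H1.4 CFT was above WT H1.4 and overlapped GFP, with differences of 0.28 (SE 0.07), past the threshold, and 0.13 (SE 0.077). Gtf2ird1 was at 46.7, 43.8, 43.8 and 48.2 CPM in the H1.4 CFT libraries, 47.1, 46.1, 45.2 and 43.8 CPM in those of WT H1.4 and 42, 40.7 and 41.2 CPM in those of GFP. H1.4 CFT and WT H1.4 overlapped and both were above GFP, with differences of 0.0024 (SE 0.054) and 0.14 (SE 0.059) for H1.4 CFT. Gtf2i and Gtf2ird2 are similar in sequence, and reads that align to both may have been left out of both counts. Reads aligned to more than 1 place made up 5.59% to 7.04% of each library. How many of them came from these genes was not tested.

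WT H1.4 against GFP was the comparison that the choice of genes did not use. By edgeR's quasi-likelihood test, 0 of 68 members passed after adjustment, and 5 (7.35%) had an unadjusted p under 0.05, where 1997 of all genes (11.5%) did. The 5 were Med24, Gtf2ird1 (log2 difference 0.14, SE 0.06, adjusted p = 0.351), Taf5 (0.23, SE 0.1, adjusted p = 0.374), Taf8 (0.20, SE 0.094, adjusted p = 0.401) and Med16 (0.12, SE 0.056, adjusted p = 0.416). The median difference over the members was -0.012 and over all genes -0.0011, and the members ranged from -0.25 (Gtf2h2) to 0.23 (Taf5). For Taf5 all WT H1.4 libraries were above GFP, at 21.9 to 24.1 CPM with 18.9 to 19.5 CPM in GFP. At n = 4 and 3 the SE of these differences was between 0.044 and 0.29. Differences of the size seen in the core TAFs could therefore be missed, and not only for the less expressed members. Med24, at a mean of 202 CPM with WT H1.4 and 175 CPM with GFP, did not pass at 0.21 (SE 0.053, adjusted p = 0.0752 by edgeR).

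Genes that work with these factors gave the following counts, from lists drawn up with earlier results known. The genes named from them had the smallest p in H1.4 CFT relative to WT H1.4, so their p-values with H1.4 CFT are a description. They stand beside 16.7% of all genes higher and 19.2% lower against WT H1.4, and 13.3% and 16.2% against GFP. Of 13 subunits of RNA polymerase II, 4 rose and 0 fell from WT H1.4 to H1.4 CFT, and 2 rose and 0 fell against GFP, with medians of 0.061 and 0.08. The shares that rose were 30.8% and 15.4%, the latter near that of all genes. Polr2a, the catalytic subunit, was at 185 ± 14.2 CPM with H1.4 CFT, 146 ± 5.83 with WT H1.4 and 140 ± 4 with GFP. Its log2 differences were 0.34 (SE 0.05, adjusted p = 3.39e-05 by edgeR) and 0.40 (SE 0.055, adjusted p = 2.64e-05). Of 24 pausing and elongation factors, 7 rose and 2 fell against WT H1.4, and 5 rose and 2 fell against GFP, with medians of 0.082 and 0.046. The shares that rose were 29.2% and 20.8%, and 8.33% fell in either. Supt5h, a subunit of the DSIF elongation factor, rose by 0.38 (SE 0.044, adjusted p = 2.82e-06 by edgeR) and 0.34 (SE 0.048, adjusted p = 3.66e-05). Of 15 genes of RNA polymerase III initiation, 4 rose and 0 fell against WT H1.4 (26.7% rose), and 2 rose and 0 fell against GFP, at 13.3% the same share as of all genes. In WT H1.4 against GFP, 1 of these 15 fell, Snapc2 of the snRNA-activating complex (-0.31, SE 0.073, adjusted p = 0.0459 by edgeR). By edgeR, 0 of the 13 polymerase II and 0 of the 24 elongation genes passed in WT H1.4 against GFP, with 0 and 2 at an unadjusted p under 0.05.

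Position in the genome gave a limit on several values. Of the 71 members found in the GRCr8 gene table, 33 overlapped another gene and 19 a protein-coding gene. Whether the authors counted by strand is not given in the sources used here, so reads of overlapping genes on opposite strands may not have been told apart.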

How the data were processed

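Polyadenylated RNA of 11 rat neuron libraries was analysed from gene-level counts. Per the submitters' processing notes, the authors used STAR 2.7.2b for alignment, HTSeq 0.10.0 for counting and the mRatBN7.2 build. The deposited files hold raw counts, 1 per gene symbol. The annotation release, strand setting and overlap mode are not given in the sources used here. The 5 summary entries of each file, among them 45.2% to 46.0% of reads in no feature, stayed out of library sizes and tests.

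Counts were fitted in R 4.3.3 with edgeR 4.0.16: filterByExpr by group (minimum count 10, minimum total 15), TMM scaling, the robust quasi-likelihood test with group as the only term over all 11 libraries, and Benjamini-Hochberg adjustment over the 17294 genes tested. There were 8 residual degrees of freedom and a biological coefficient of variation of 7.02%. The code was tested on simulated counts.

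The members, the gene lists, the tests and the other settings were chosen with earlier results of these data known. Library values are given for the members with the highest and lowest difference from WT H1.4 in each class, for any past the threshold in WT H1.4 against GFP, and for 18 members listed by name, with Taf2, Taf10, Taf11, Taf12, Taf13 and Med27 added after their values were seen. Lists give up to 2 genes by smallest p in H1.4 CFT relative to WT H1.4, so the p-values of these genes with H1.4 CFT are a description. The other settings were RLE scaling, DESeq2 1.42.0, limma-voom (limma 3.58.1), other filters, a replicate block, only the groups compared, a fold threshold, replicates 1 and 2 or 3 and 4 alone, and each library left out.

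The pairing of replicate numbers was checked by correlating deviations from group means. For numbers 1 to 4 in H1.4 CFT and WT H1.4 the correlations were 0.149, 0.174, 0.192 and 0.142, for numbers 2 to 4 in H1.4 CFT and GFP 0.255, 0.124 and 0.163, and in WT H1.4 and GFP 0.206, 0.113 and 0.0927. Unequal numbers were not correlated for comparison, so these values cannot decide whether the numbers pair the samples, and the labels do not state it. The main fit had group as its only term, so its differences, SEs and calls use no pairing. The replicate block was run as another setting. Overlaps of genes and promoter sequences came from RefSeq tables of the GRCr8 build, which held 71 and 60 of the 72 members.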

Additional observations from a re-analysis of the deposited data

Results flagged for a closer look

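One library stood apart within its group for 1 member. Med4 was at 22.3 CPM in H1.4 CFT 3, while the other H1.4 CFT libraries were at 24.1 to 24.4 CPM. The gap was 0.835 of the range of the group, above Dixon's 95% critical value for 4 samples. Of 82 groups examined this was the 1 such case, and chance gives about 1 in 20.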

How the results depend on the processing

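Counts of members past the threshold moved most with a minimum fold. With a log2 fold threshold of 0.25, 5 members were higher and 1 lower in H1.4 CFT relative to WT H1.4, and 1 was higher against GFP. On replicates 1 and 2 alone, 9 were higher against GFP. The cause was not tested beyond the smaller number of samples in the latter. Over the omissions of a library the higher count ran from 15 to 20 and the lower from 4 to 6 against WT H1.4, and from 12 to 19 and 4 to 5 against GFP. In WT H1.4 against GFP the higher count was 0 to 1 over these omissions. It was 1 with no low-count filter, with only the groups compared and with DESeq2. On replicates 3 and 4 it was 2, and 2 were lower. With the replicate block the counts were 19 higher and 6 lower against WT H1.4, 19 and 4 against GFP, and 0 and 0 in WT H1.4 against GFP, and the block changed the calls of Med15, Med24 and Taf13 and no other member. No difference of a named member that had passed changed sign. Depth limits Taf7l, Gtf2a1l and the pseudogenes most.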
